A study of Mus musculus with 15 samples.

Results

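The 41 genes described here were chosen by symbol: the 19 cytosolic aminoacyl-tRNA synthetases of a fixed list, and 22 genes of amino-acid supply and stress signaling that are known targets, partners or effectors of the transcription factor ATF4. They made up 41 of the 35142 genes in the summed table and 41 of the 15360 that passed the filter on low counts, so every member was measured and tested. By role they comprised the synthetases (19), the serine and one-carbon enzymes Psat1, Phgdh, Psph, Shmt2, Mthfd2 and Mthfd1l (6), the asparagine and proline enzymes Asns, Aldh18a1 and Pycr1 (3), the amino-acid transporters Slc7a5, Slc3a2, Slc7a1 and Slc1a4 (4), the transcription regulators Atf4, Atf5, Ddit3, Cebpg and Nupr1 (5) and the effectors Trib3, Chac1, Sesn2 and Eif4ebp1 (4).

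Bulk RNA-seq had been performed on 15 primary cultures of dissociated mouse cerebellum, all from wild-type C57BL/6 pups aged P0 to P4. Of these, 5 were left unstimulated, and on day 14 in vitro the others were given IL-12p70, the p35/p40 heterodimer, as recombinant mouse protein for 18 h, 5 at 30 ng/ml and 5 at 100 ng/ml. The cultures came from whole dissociated cerebellum without a sort, and no label ties a culture to a pup or litter, so the spread between replicates may be partly technical. The comparisons asked how IL-12 at each concentration altered the transcriptome, and both used the same 5 unstimulated cultures.

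Aminoacyl-tRNA synthetases attach each amino acid to its tRNA and so supply the ribosome. When amino acids run short or proteins misfold, kinases such as GCN2 and PERK phosphorylate eIF2alpha, general translation falls while the ATF4 mRNA is translated better, and ATF4, paired with C/EBP family proteins, switches on genes for amino-acid import, synthesis and tRNA charging. Its targets include its own brakes, such as Trib3, and in the brain the serine made by this pathway comes largely from astrocytes.

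ATF4 binds elements that join a C/EBP part to an ATF part, often read as TGATGNAA, or TTNCATCA on the other strand. RefSeq windows from 250 bases before to 50 after a gene's start (build GRCm38.p6) were held for 32 of the 41 genes, and 11 of these 32 (34.4%) contained those letters on either strand, against 4.51% of all 27025 genes with a window. The 11 were Aars1, Gars1, Iars1, Tars1, Yars1, Asns, Pycr1, Slc1a4, Nupr1, Trib3 and Chac1, and none of the 6 serine and one-carbon enzymes was among them. Windows were not used for Cars1, Hars1, Lars1, Nars1, Rars1, Vars1, Wars1, Slc7a5 and Eif4ebp1. The genes were chosen partly as known ATF4 targets, so this excess is no independent result, and most of the 32 lacked the letters. The stretches around 7 of these matches are shown. Each reads 5′ to 3′ on the gene's strand, ends before the gene's start and carries the match in capitals:
Nupr1, chr7:126625547-126625606, minus strand: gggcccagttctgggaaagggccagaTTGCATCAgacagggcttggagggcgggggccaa
Chac1, chr2:119351023-119351082, plus strand: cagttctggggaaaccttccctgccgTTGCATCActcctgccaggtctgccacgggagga
Asns, chr6:7693210-7693258, minus strand: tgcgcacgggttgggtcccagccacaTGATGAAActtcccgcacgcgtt
Pycr1, chr11:120643818-120643877, minus strand: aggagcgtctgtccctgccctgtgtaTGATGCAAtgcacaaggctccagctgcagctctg
Aars1, chr8:111033704-111033763, plus strand: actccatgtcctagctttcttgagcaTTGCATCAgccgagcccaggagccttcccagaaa
Gars1, chr6:55037945-55038000, plus strand: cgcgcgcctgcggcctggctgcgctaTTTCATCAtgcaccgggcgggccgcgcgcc
Tars1, chr15:11399659-11399699, minus strand: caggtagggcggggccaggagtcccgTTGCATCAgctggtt
The match began 110 bases before the start of Nupr1, 193 before Chac1, 112 before Aars1, 103 before Pycr1, 30 before Gars1, 23 before Asns and 15 before Tars1. A match of letters describes the window and is not a measured binding site.

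Depth ran from 25746096 to 38435850 estimated counts per culture, and the 41 genes were well covered: apart from Iars1, a member had between 110 and 10403 reads in a culture. The label gives the cells as neurons, but the 13 neuronal markers together summed to 153 to 201 TPM (transcripts per 1000000, a level per length) in unstimulated cultures, against 8266 to 11688 for the microglial list. Map2 was the highest of the 13 at 84.9 TPM, followed by Pvalb at 28.9, Snap25 at 23.2 and Calb1 at 17.0, and the other 9 stood below 10 TPM. In unstimulated cultures Rbfox3 stood at 3.42 TPM, Neurod1 at 1.87 and Gabra6 at 1.98, and the Purkinje cell gene Pcp2 reached at most 3 reads in any of them. The astrocyte gene Gfap stood at 2366 TPM, the myelin gene Mbp at 4819 and the microglial gene C1qa at 2452. The values below therefore describe a mixture of cells, and a smaller share of one cell type cannot be told apart from less RNA per cell.

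At rest the members spanned more than an order of magnitude per length. Slc3a2, the heavy chain shared by several amino-acid exchangers, was the highest at 343 TPM ± 28.0 (SD, n = 5). Psat1 and Phgdh, which catalyse the second and first steps of serine synthesis, followed at 169 ± 8.36 and 134 ± 8.07 TPM, beside the seryl-tRNA synthetase Sars1 at 136 ± 4.86, Atf4 itself at 121 ± 5.82 and the asparaginyl-tRNA synthetase Nars1 at 112 ± 7.43. Phgdh and Sars1 differed by less than their spread. At the lower end stood the glutathione-degrading enzyme Chac1 at 5.31 ± 0.505 TPM, the proline enzyme Pycr1 at 5.67 ± 0.851, the pseudokinase Trib3 at 5.83 ± 0.855 and the mitochondrial formate enzyme Mthfd1l at 8.35 ± 0.650, the first 3 of which overlapped. The synthetases had a median of 54.1 TPM and, leaving Iars1 aside, ran from Cars1 at 30.2 to Sars1 at 136.

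**Figure D1:**
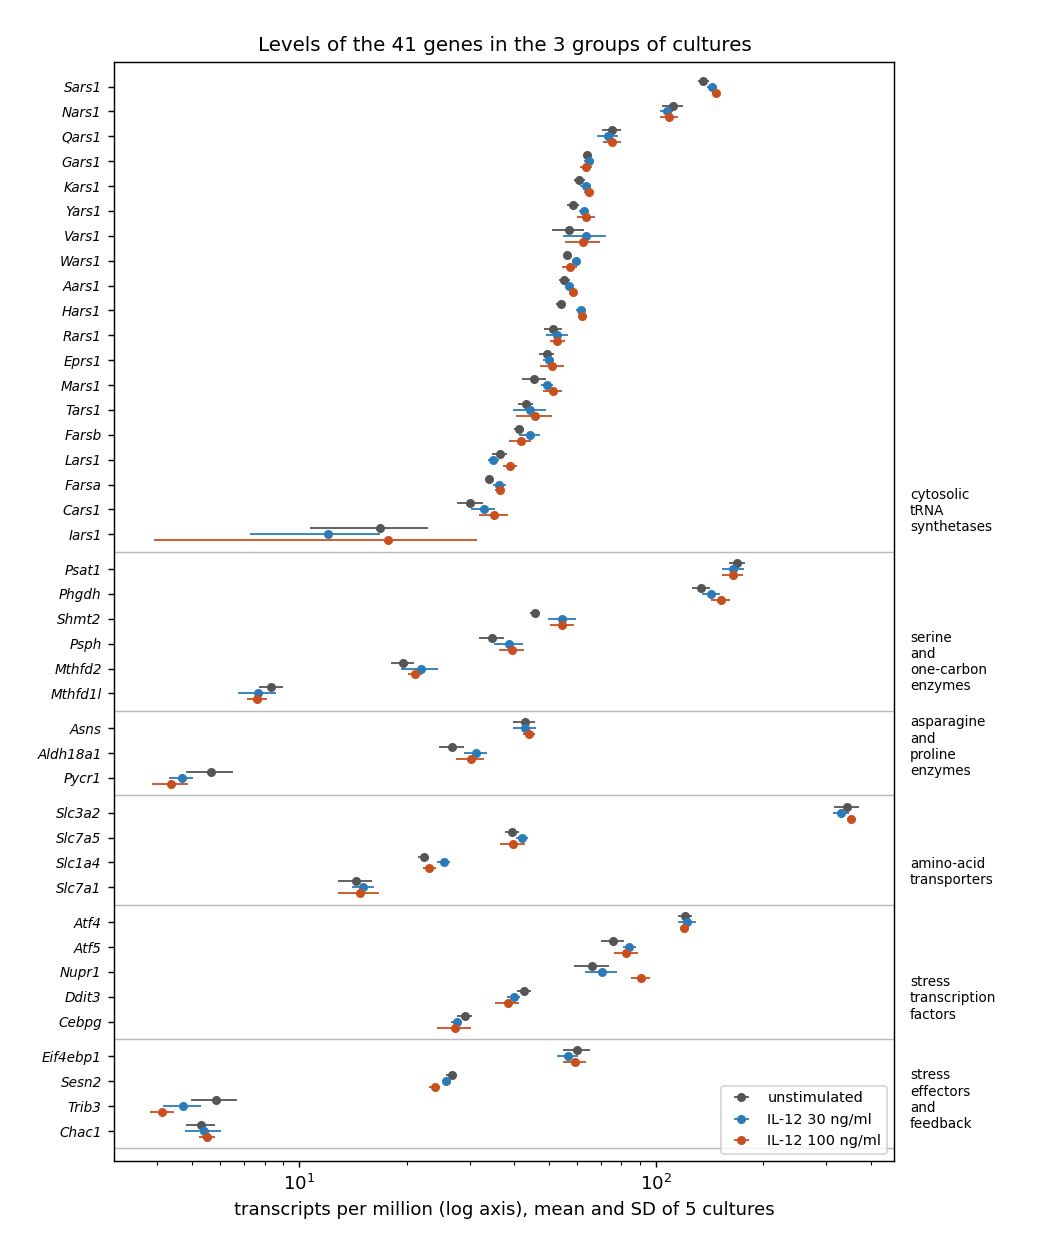
Level of each of the 41 genes in TPM (log axis) as the mean and SD of 5 cultures, for unstimulated, 30 ng/ml and 100 ng/ml cultures, ordered within each role by the unstimulated level. Slc3a2 lies highest at 343 TPM and Chac1 lowest at 5.31 in unstimulated cultures, the 3 groups lie close together for most genes, and Iars1 has by far the widest bars.

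After 100 ng/ml, 8 of the 41 genes rose and 2 fell at a false discovery rate (FDR, Benjamini-Hochberg over all 15360 genes, edgeR quasi-likelihood test) under 0.05. Across all genes tested 9.77% were called, 5.83% as risen and 3.93% as fallen. The risers were the synthetases Cars1, Hars1, Mars1 and Yars1, the serine and one-carbon enzymes Phgdh and Shmt2, the proline and ornithine precursor enzyme Aldh18a1, and the stress-induced regulator Nupr1; Trib3 and Sesn2 fell. Apart from Nupr1 and Trib3 the changes were small, from a fall of 9.93% for Sesn2 to a rise of 21.0% for Phgdh. Atf4 was not called. Of the 41 estimates 30 lay above 0, with a median log2 fold change of 0.07, while 48.7% of all genes lay above 0 with a median of -0.00.

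The count depended on single cultures. Without replicate 2 of the 100 ng/ml cultures 13 members rose and 3 fell, the additional genes being Aars1, Kars1, Sars1, Vars1 and Psph among the risers and Cebpg among the fallers. Calls over all genes grew in that fit too, from 896 risen and 604 fallen to 1518 and 1414 of 15328. Without unstimulated replicate 1, 4 members rose, with 591 risen and 355 fallen over all genes. Without replicate 1, 3 or 4 of the 100 ng/ml cultures 5 members rose in each fit, with 605, 612 and 704 risen over all genes. The falls numbered 0 without unstimulated replicate 1 or 2 or without 100 ng/ml replicate 3, and 1 without any of the other 11 cultures. Hars1, Mars1, Phgdh and Nupr1 passed the threshold in all 15 fits that left out 1 culture.

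**Figure D2:**
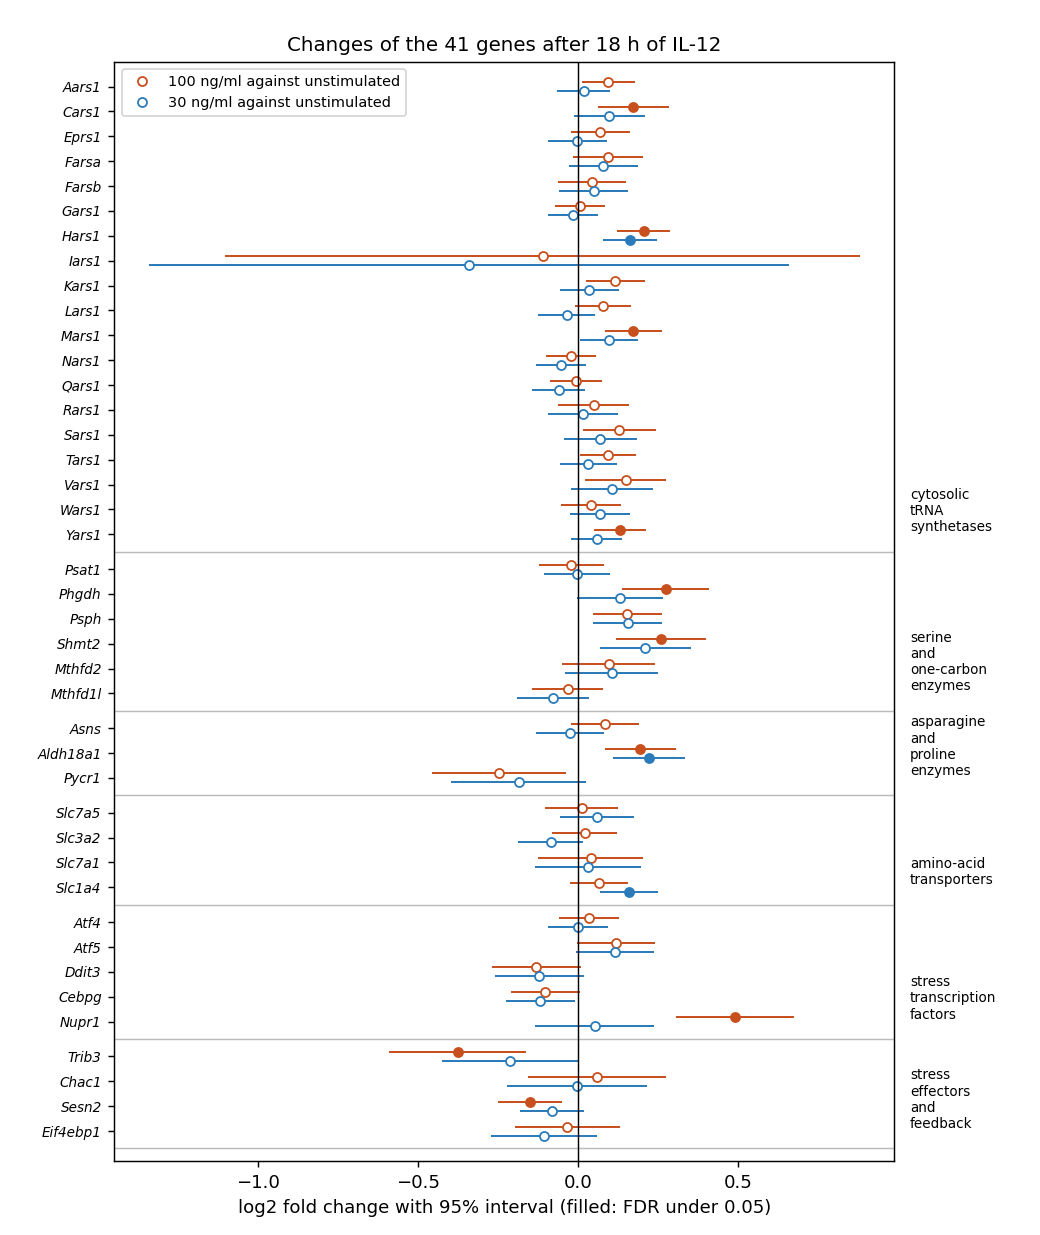
Log2 fold change with its 95% interval for each of the 41 genes, at 100 ng/ml and at 30 ng/ml against the same unstimulated cultures, with filled points at an FDR under 0.05. At 100 ng/ml 8 points on the right and 2 on the left are filled; at 30 ng/ml 3 on the right are, and the interval of Iars1 is several times wider than any other.

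Nupr1, a small chromatin-associated protein induced by many kinds of stress (ENSMUSG00000030717, chr7:126222414-126230033, GRCm39), showed the largest change. Its normalized level was 21.6, 19.5, 22.9, 23.7 and 19.6 CPM (counts per 1000000, scaled between libraries) in unstimulated cultures 1 to 5, 19.2, 21.2, 22.9, 27.0 and 21.0 after 30 ng/ml, and 34.0, 30.3, 31.8, 27.6 and 27.4 after 100 ng/ml. All 5 cultures at 100 ng/ml lay above the highest culture of both other groups, which overlapped each other. The log2 fold change was 0.49 ± 0.09 (SE; FDR 0.0016) at 100 ng/ml, a rise of 40.7%, and 0.05 ± 0.09 (FDR 0.775) at 30 ng/ml. The direct difference between the concentrations was 0.44 ± 0.09 with an FDR of 0.0214. Both main transcripts had their highest mean at 100 ng/ml, but their ranges overlapped those of the other groups, and transcripts were not tested. The coding transcript Nupr1-201 averaged 13.7 CPM ± 1.05 unstimulated, 13.5 ± 2.45 at 30 ng/ml and 19.5 ± 3.83 at 100 ng/ml. Nupr1-205, annotated as a target of nonsense-mediated decay, averaged 6.29 ± 1.63, 7.54 ± 0.961 and 9.63 ± 1.84.

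Among the synthetases the clearest rise was that of Hars1, which charges the histidine tRNA. Its level was 59.7, 61.0, 63.0, 60.0 and 62.8 CPM unstimulated, 65.4, 68.0, 71.4, 72.3 and 65.7 at 30 ng/ml and 71.0, 68.6, 73.0, 71.2 and 69.4 at 100 ng/ml. Every stimulated culture lay above every unstimulated one, and the 2 concentrations overlapped. After the higher concentration the log2 fold change came to 0.21 ± 0.04 (FDR 0.00292). Hars1 shares exons on the opposite strand with the mitochondrial synthetase Hars2, which averaged 19.9 CPM ± 1.21 unstimulated and 20.7 ± 0.797 at 100 ng/ml.

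Mars1, the methionyl-tRNA synthetase that loads both initiator and elongator tRNA (chr10:127128344-127147776, GRCm39), lay at 61.8, 63.6, 65.7, 64.0 and 66.1 CPM unstimulated and 71.6, 68.2, 78.0, 73.9 and 70.5 at 100 ng/ml, without overlap, a log2 fold change of 0.17 ± 0.04 (FDR 0.0138). At 30 ng/ml it lay at 66.0, 67.5, 70.7, 71.9 and 67.6 CPM and was not called. Yars1, which charges the tyrosine tRNA, lay at 69.5, 70.8, 74.0, 73.0 and 72.7 CPM unstimulated and 82.5, 75.5, 80.0, 79.8 and 76.5 at 100 ng/ml, again without overlap (log2 fold change 0.13 ± 0.04, FDR 0.0328). Its exons overlap those of S100pbp, at 34.4 CPM ± 0.732 unstimulated and 31.4 ± 2.06 at 100 ng/ml. Cars1, for the cysteine tRNA, lay at 37.3, 35.9, 38.2, 38.9 and 40.3 CPM unstimulated and at 44.9, 38.5, 44.8, 42.7 and 43.9 at 100 ng/ml, where replicate 2 sat inside the unstimulated range (0.17 ± 0.05, FDR 0.0407). Cars1 passed the threshold in 5 and Yars1 in 9 of the 15 fits that left out 1 culture.

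The other 15 synthetases were not called at 100 ng/ml. Of all 19, 16 had an estimate above 0, as did 48.7% of all genes, and the median was 0.09. At an unadjusted p under 0.05, 9 were higher and none lower, where 25.6% of all genes passed in either direction. The largest uncalled estimates were 0.15 for Vars1, 0.13 for Sars1 and 0.12 for Kars1, and those of Gars1 (0.01), Qars1 (-0.01) and Nars1 (-0.02) were nearest to 0. Wars1, which charges the tryptophan tRNA and is also known as a target of interferon gamma, changed by 0.04 ± 0.04 (FDR 0.595) at 100 ng/ml and 0.07 ± 0.04 (FDR 0.378) at 30 ng/ml. Its 95% interval at 100 ng/ml ran from -0.05 to 0.13. Leaving Iars1 aside, the mean log2 level of the 18 other synthetases relative to the unstimulated mean ran from -0.04 to 0.03 in unstimulated cultures, from -0.03 to 0.09 at 30 ng/ml and from 0.04 to 0.12 at 100 ng/ml, so the 100 ng/ml cultures did not overlap the unstimulated ones in this average. With Iars1 included they did, at -0.04 to 0.12 against -0.03 to 0.04. The average over all members other than Iars1 overlapped too, at -0.01 to 0.10 for 100 ng/ml against -0.04 to 0.03 unstimulated.

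Iars1, the isoleucyl-tRNA synthetase, could not be read from the summed table. Its level ran from 5.71 to 76.4 CPM over the 15 cultures, with a coefficient of variation of 52.2%, while every other member stayed at or below 13.2% within each group. Of the transcript identifiers that the annotation used here does not hold, the one that correlated most negatively with Iars1 was picked. Its opposite course therefore follows from the choice. It ran from 18.1 to 81.8 CPM, and the sum of both ran from 83.8 to 102 CPM with a coefficient of variation of 6.27%. Whether that identifier belongs to Iars1 is not given in the sources used here, so no change of Iars1 is described. Its estimates do stay in the counts and medians over all members, all synthetases and the genes with ATF4-type letters.

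In the serine branch, Phgdh, the entry enzyme from glycolysis (chr3:98220484-98255047, GRCm39), lay at 103, 112, 112, 116 and 117 CPM unstimulated, 112, 115, 127, 131 and 128 at 30 ng/ml and 140, 114, 148, 139 and 136 at 100 ng/ml. At 100 ng/ml 4 of the 5 cultures lay above all unstimulated ones and replicate 2 lay among them. The log2 fold change was 0.27 ± 0.06 (FDR 0.0107) at 100 ng/ml and 0.13 ± 0.06 (FDR 0.224) at 30 ng/ml. Shmt2, which moves the one-carbon unit of serine to folate in mitochondria (chr10:127352266-127358323, GRCm39), lay at 53.6, 58.3, 57.6, 60.8 and 56.9 CPM unstimulated and 73.6, 58.3, 68.5, 72.0 and 71.2 at 100 ng/ml, with replicate 2 again inside the unstimulated range (0.26 ± 0.07, FDR 0.0193). At 30 ng/ml it lay at 57.0, 71.4, 70.5, 66.5 and 67.1 CPM, a log2 fold change of 0.21 ± 0.07 with an FDR of 0.0574.

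An annotated pseudogene is named for Phgdh, and how reads were shared with it is not given in the sources used here. The later enzymes of serine synthesis did not pass the threshold by edgeR at either concentration. Psat1, the aminotransferase of the second step, averaged 230 CPM ± 9.92 unstimulated, 230 ± 12.9 at 30 ng/ml and 227 ± 10.7 at 100 ng/ml. The higher concentration gave an estimate of -0.02 ± 0.05 (FDR 0.831), with a 95% interval from -0.12 to 0.08. Psph, the phosphatase of the last step, came closer, at 0.15 (FDR 0.0569) at 100 ng/ml and 0.16 (FDR 0.0624) at 30 ng/ml, and DESeq2 called it risen at both. The mitochondrial folate enzymes Mthfd2 and Mthfd1l had estimates of 0.10 and -0.03 at 100 ng/ml.

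Aldh18a1, which makes the common precursor of proline and ornithine from glutamate (chr19:40538698-40576949, GRCm39), lay at 49.9, 49.4, 49.6, 51.8 and 54.0 CPM unstimulated, 54.5, 59.2, 61.8, 61.8 and 60.0 at 30 ng/ml and 54.9, 53.6, 63.8, 61.0 and 58.3 at 100 ng/ml. The 30 ng/ml cultures lay wholly above the unstimulated ones, and at 100 ng/ml replicate 2 fell just below the highest of them. The log2 fold change was 0.22 ± 0.05 (FDR 0.0132) and 0.20 ± 0.05 (FDR 0.0235). Asns, asparagine synthetase and a classic ATF4 target, averaged 48.0 CPM ± 1.65 unstimulated, 47.2 ± 3.36 at 30 ng/ml and 50.9 ± 2.10 at 100 ng/ml, with estimates of -0.02 ± 0.05 (FDR 0.824) and 0.08 ± 0.05 (FDR 0.297). Pycr1, which completes proline synthesis, had an estimate of -0.25 at 100 ng/ml (FDR 0.122).

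No transporter passed the threshold at 100 ng/ml by edgeR or DESeq2, and 0 did at an unadjusted p under 0.05, a cut that 25.6% of all genes passed. Slc7a5, the large neutral amino-acid exchanger that pairs with Slc3a2, averaged 82.8 CPM ± 3.55 unstimulated, 86.4 ± 4.15 at 30 ng/ml and 83.5 ± 6.60 at 100 ng/ml, with a log2 fold change of 0.01 ± 0.05 (FDR 0.916) at 100 ng/ml. The estimates of Slc3a2, the cationic transporter Slc7a1 and the neutral transporter Slc1a4 were 0.02, 0.04 and 0.07.

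Atf4 mRNA (chr15:80139372-80141745, GRCm39) lay at 115, 117, 119, 125 and 111 CPM unstimulated, 110, 117, 124, 122 and 115 at 30 ng/ml and 124, 116, 119, 125 and 117 at 100 ng/ml. The 3 groups overlapped throughout. The log2 fold change was 0.03 ± 0.04 (FDR 0.657) at 100 ng/ml, with a 95% interval from -0.06 to 0.12, and 0.00 ± 0.04 (FDR 0.989) at 30 ng/ml. ATF4 is regulated largely at the level of translation, which these RNA measurements do not reach. Ddit3, the pro-apoptotic partner also called CHOP, averaged 18.5 CPM ± 1.17 unstimulated, 17.0 ± 1.03 at 30 ng/ml and 16.9 ± 1.48 at 100 ng/ml, with estimates of -0.12 ± 0.06 (FDR 0.286) and -0.13 ± 0.06 (FDR 0.215). The annotation holds 2 entries named Ddit3, with exons that overlap on the same strand. Only ENSMUSG00000025408 was used, and reads given to the other entry were not added. Ddit3 shares exons with Mars1 on the opposite strand; the library kit kept strand, but whether the quantification used it is not given in the sources used here. Atf5 and Cebpg, bZIP proteins that act beside ATF4, had estimates of 0.12 and -0.10 at 100 ng/ml and were not called.

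The feedback and effector genes held both falls. Trib3, a pseudokinase that binds ATF4 and damps its activity (chr2:152179337-152191958, GRCm39), lay at 6.30, 6.63, 5.15, 6.38 and 5.81 CPM unstimulated, 4.29, 5.32, 6.14, 5.50 and 4.92 at 30 ng/ml and 4.70, 4.34, 4.24, 5.11 and 4.93 at 100 ng/ml. All 5 cultures at 100 ng/ml lay below the lowest unstimulated culture, and the 30 ng/ml cultures lay across both. The log2 fold change was -0.38 ± 0.10 (FDR 0.0253) at 100 ng/ml and -0.21 ± 0.10 (FDR 0.212) at 30 ng/ml. Trib3 passed the threshold in 11 of the 15 fits without 1 culture.

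Sesn2, a leucine-binding inhibitor of mTORC1 signaling (chr4:132219335-132237815, GRCm39), lay at 52.1, 57.5, 56.5, 53.7 and 52.8 CPM unstimulated and 51.5, 43.9, 49.3, 51.2 and 49.4 at 100 ng/ml. The groups were separate by a narrow margin, and the log2 fold change was -0.15 ± 0.05 with an FDR of 0.0473. It passed in only 2 of the 15 fits that left out 1 culture. Chac1 averaged 4.92 CPM ± 0.540 unstimulated and 5.11 ± 0.348 at 100 ng/ml, an estimate of 0.06 ± 0.10 (FDR 0.760) with a 95% interval from -0.15 to 0.27. Eif4ebp1, the translation repressor 4E-BP1, had an estimate of -0.03.

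**Figure D3:**
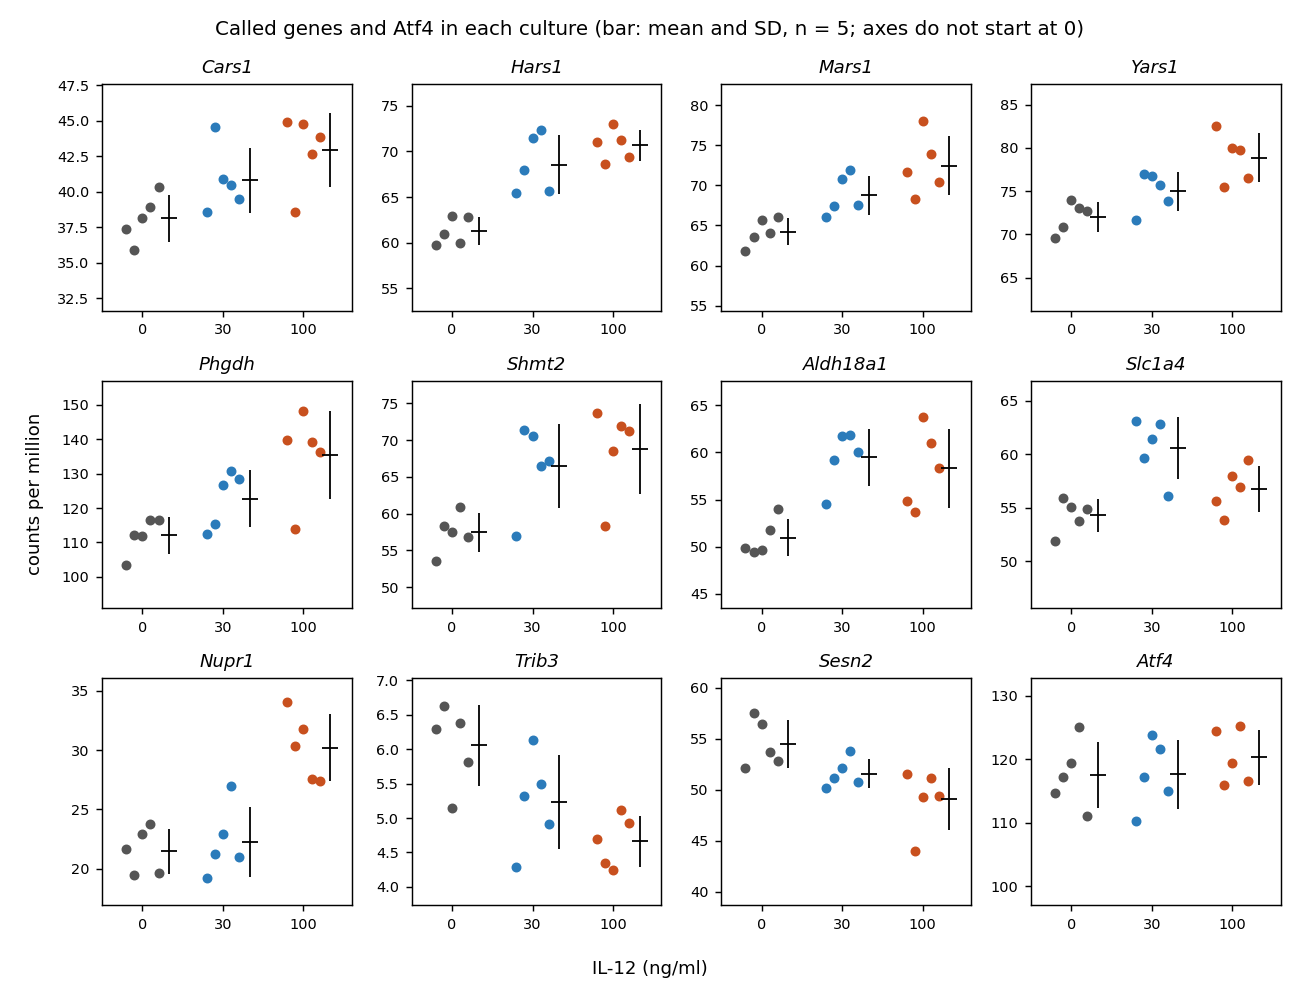
Normalized level in CPM of the 11 genes called in any comparison and of Atf4, with 1 point per culture and the mean and SD of 5 cultures beside them, against the IL-12 concentration; axes do not start at 0. Nupr1 at 100 ng/ml lies wholly above both other groups (27.4 to 34.0), Hars1 lies above the unstimulated range at both concentrations, and the groups of Atf4 overlap. Replicate 2 is the lowest of the 100 ng/ml cultures for every gene drawn except Nupr1 and Trib3.

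Genes whose groups did not overlap at 100 ng/ml numbered 4 above (Hars1, Mars1, Yars1 and Nupr1) and 2 below (Trib3 and Sesn2) of 41, where 4.34% and 2.84% of all genes did so.

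At 30 ng/ml 3 of the 41 genes rose and 0 fell, by the same test, while 7.87% of all genes were called, 4.16% as risen and 3.71% as fallen. The risers were Hars1 (0.16 ± 0.04, FDR 0.0159), Aldh18a1 and the transporter Slc1a4, which imports alanine, serine and cysteine. In all 3 the 5 stimulated cultures lay wholly above the unstimulated ones, as did 5.44% of all genes, and in 0 members they lay wholly below, as in 3.46% of all genes. At an unadjusted p under 0.05, 6 members were higher and 2 lower, where 22.7% of all genes passed in either direction. DESeq2 called 5 members risen and 0 fallen, and 826 and 842 over all genes. The median log2 fold change of the 41 was 0.03, and 24 lay above 0, as did 50.1% of all genes. Without 30 ng/ml replicate 4 only Aldh18a1 rose, with 483 risen and 457 fallen over all genes instead of 639 and 570. Without 100 ng/ml replicate 2, which enters the shared estimate of the spread, 5 rose, with 900 and 768 over all genes.

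Slc1a4 (chr11:20252180-20282774, GRCm39) lay at 51.9, 55.9, 55.0, 53.7 and 54.9 CPM unstimulated, 63.0, 59.6, 61.5, 62.8 and 56.1 at 30 ng/ml and 55.6, 53.9, 58.0, 56.9 and 59.5 at 100 ng/ml. The highest unstimulated and the lowest 30 ng/ml culture were almost level, and the 100 ng/ml cultures lay between and across. Its log2 fold change was 0.16 ± 0.04 (FDR 0.0258) at 30 ng/ml and 0.07 ± 0.04 (FDR 0.348) at 100 ng/ml, and the direct difference between the concentrations, -0.09 ± 0.04, had an FDR of 0.357. Slc1a4 passed the threshold at 30 ng/ml in 9 of the 15 fits without 1 culture.

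Between the concentrations, Nupr1 was the only member higher at 100 than at 30 ng/ml and 0 were lower, where 0.579% of all genes were called, 0.501% as higher and 0.0781% as lower. Its groups did not overlap, as 1.74% of all genes showed in that direction and 1.23% in the other. Of the 41 estimates 29 lay above 0, against 48.5% of all genes. At an unadjusted p under 0.05, 5 members were higher and 1 lower, where 12.7% of all genes passed in either direction. DESeq2 called 1 and 0 members, and 179 and 68 over all genes. The call for Nupr1 was lost without 30 ng/ml replicate 1, 2 or 5 or 100 ng/ml replicate 1, with the log2 fold change between 0.39 and 0.52 over the 15 fits. Leaving Iars1 aside, the remaining members ranged from -0.16 (Trib3) to 0.14 (Phgdh). A difference between concentrations was not detected for Phgdh (0.14 ± 0.06, FDR 0.347).

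**Figure D4:**
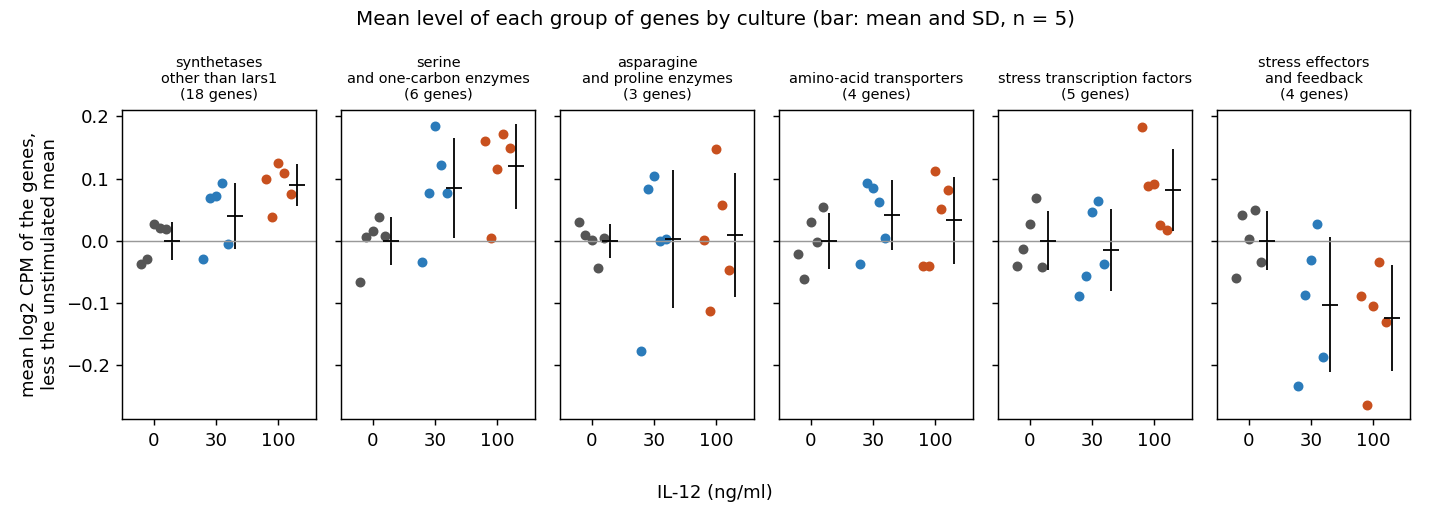
Mean log2 CPM of the genes of each role, less its mean over the unstimulated cultures, with 1 point per culture and the mean and SD of 5 cultures, against the IL-12 concentration; Iars1, with which the synthetase ranges overlap, is left out. The synthetase averages at 100 ng/ml lie from 0.04 to 0.12, above the unstimulated range of -0.04 to 0.03. In every other role the 100 ng/ml cultures overlap the unstimulated ones.

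Members with and without the ATF4-type letters near their start had medians close to each other. At 100 ng/ml the 11 with a match had a median log2 fold change of 0.07, with 2 risen (Yars1, Nupr1) and 1 fallen (Trib3). The 21 with a window but no match had a median of 0.07, with 4 risen (Mars1, Phgdh, Shmt2, Aldh18a1) and 1 fallen (Sesn2), and the other 2 risers, Cars1 and Hars1, had no window. At 30 ng/ml the medians were -0.00 and 0.04.

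Other genes of the same pathways were taken from lists named for function. Over all genes, 5.83% rose and 3.93% fell at 100 ng/ml, and 4.16% and 3.71% at 30 ng/ml. Estimates above 0 made up 48.7% and 50.1% of all genes, in the same order. At an unadjusted p under 0.05, 25.6% and 22.7% of all genes passed. DESeq2 called 1083 risen and 881 fallen of all 15360 genes at 100 ng/ml, and 826 and 842 at 30 ng/ml. Of 17 mitochondrial tRNA synthetases 1 rose at each concentration, Fars2, at 0.37 ± 0.07 (FDR 0.00298) and 0.38 ± 0.07 (FDR 0.00365), and 14 of 17 estimates lay above 0 in both comparisons. None of the 6 tested scaffold and tRNA partners of the synthetase complex was called by edgeR or DESeq2, with 1 and 3 at an unadjusted p under 0.05. Of 12 genes for eIF2alpha kinases, phosphatases and GCN2 partners edgeR called none at either concentration; at 100 ng/ml 1 was higher and 2 lower at an unadjusted p under 0.05 and DESeq2 called 1 fallen, and at 30 ng/ml 1 was higher unadjusted and DESeq2 called 0.

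Of 18 further ATF4 target genes tested, 5 rose and 1 fell at 100 ng/ml. At 30 ng/ml 0 rose and 1 fell, 6 were higher at an unadjusted p under 0.05 and DESeq2 called 1 risen. The shares over all genes given above apply here too. The cystine importer Slc7a11 changed by 0.38 ± 0.12 (FDR 0.0470) and 0.26 ± 0.12 (FDR 0.189) at 100 and 30 ng/ml, from a low level of 3.23 CPM ± 0.453. Atf3, a stress-induced repressor, fell at both, by 0.32 ± 0.08 (FDR 0.0149) and 0.36 ± 0.08 (FDR 0.00929) on the log2 scale, from 44.3 CPM ± 2.89 to 35.4 ± 3.89 and 34.5 ± 3.60. Of 15 further genes of serine, folate and methionine metabolism 3 rose and 0 fell at each concentration. Ahcy, which clears S-adenosylhomocysteine, rose by 0.35 ± 0.06 (FDR 0.000879) and 0.29 ± 0.06 (FDR 0.00494), and Gldc, of the glycine cleavage system, by 0.22 ± 0.07 (FDR 0.0431) and 0.28 ± 0.07 (FDR 0.0149).

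Markers of cell types moved alongside. Over all genes, 5.83% rose and 3.93% fell at 100 ng/ml, and 4.16% and 3.71% at 30 ng/ml. At 30 ng/ml 8 of 12 microglial markers fell and 0 rose, with a median log2 fold change of -0.42, 3 of 11 astrocyte markers rose, 1 of 11 oligodendrocyte-lineage markers fell and 2 of 12 neuronal markers tested fell. Medians were 0.16 for the astrocyte, -0.09 for the oligodendrocyte-lineage and -0.49 for the neuronal list. By an unadjusted edgeR p under 0.05, 8 neuronal markers were lower and 1 higher, where 22.7% of all genes passed in either direction. At 100 ng/ml 0 of 12 microglial markers were called (median -0.12, 1 lower at an unadjusted p under 0.05, 0 by DESeq2), 3 of 11 oligodendrocyte-lineage markers fell, 1 neuronal marker fell, 1 astrocyte marker rose and 1 fell, and 2 of 6 fibroblast and meningeal markers rose. Medians were -0.15 for the oligodendrocyte-lineage, -0.34 for the neuronal, -0.02 for the astrocyte and 0.17 for the fibroblast and meningeal list. By an unadjusted edgeR p under 0.05, 6 oligodendrocyte-lineage markers were lower and 0 higher. For neuronal markers these numbers were 4 and 0, where 25.6% of all genes passed in either direction. The summed level of the microglial markers ran from 8266 to 11688 TPM unstimulated, 6586 to 8266 at 30 ng/ml and 7928 to 10416 at 100 ng/ml, and that of the astrocyte markers from 3909 to 4386, 4640 to 5407 and 4346 to 4801. The oligodendrocyte-lineage markers summed to 6633 to 9843, 6658 to 8180 and 5926 to 7196 TPM in the same order, and the neuronal markers to 153 to 201, 156 to 184 and 144 to 186. The fibroblast and meningeal markers summed to 418 to 560 TPM unstimulated, 443 to 531 at 30 ng/ml and 518 to 666 at 100 ng/ml. Their part in the changes of Nupr1, Phgdh, Shmt2 and the synthetases was not tested.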

How the data were processed

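The authors deposited, for each culture, transcript-level estimated counts and TPM. Their methods describe alignment to GRCm39 with STAR 2.7.8a and gene counts by featureCounts (the submitters' processing notes also list FastQC 0.10.0); the tool that made the transcript estimates is not given in the sources used here. Estimates were summed by gene with GENCODE M39; 120537 of 121798 transcripts matched, and the rest held 0.677% to 0.712% of reads. Estimated counts were rounded. The filter required 1 CPM or more in 2 or more of the cultures and left 15360 genes, which were scaled by TMM (factors 0.981 to 1.02) and tested with the quasi-likelihood test of edgeR 4.0.16 in R 4.3.3, all 15 cultures in 1 fit, with Benjamini-Hochberg adjustment. TPM were summed by gene for levels per length. Python 3.11.15 was used for joins and promoter letters, and DESeq2 1.42.0 was an alternative. No 2 cultures of a group agreed within sampling noise (chi-square per degree of freedom 4.98 to 28.3 over 30 pairs). The fit was tested on simulated counts for 100 ng/ml against unstimulated, with changes set in either direction. It called 12 of 65 genes (18.5%) at a set log2 change of 0.2, 54 of 66 (81.8%) at 0.5 and 65 of 67 at 1. Most changes of the size seen in these members could therefore be missed. Fewer genes were changed there than were called in the data, so these shares need not hold here. The members, lists and tests were chosen with earlier results of these data known. All 41 members are named with fold changes and tests for those called and for Atf4, Ddit3, Asns, Psat1, Trib3, Chac1, Wars1 and Slc7a5; from each pathway list up to 2 called genes with the largest change against unstimulated are named. Estimates of single members outside that rule, and the unmatched identifier set beside Iars1, were picked after their values were seen. Alternatives were other scalings, filters, tests, 2-group fits, a replicate block and leaving out each culture.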

Additional observations from a re-analysis of the deposited data

Results flagged for a closer look

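In 10 of 123 groups of 5 cultures examined over the 41 genes, 1 culture lay far from the other 4, measured as its gap to the nearest divided by the range of the group; chance alone flags about 1 in 20 groups. Iars1 was flagged at 0.799, where unstimulated replicate 4 was lowest at 19.5 CPM against 37.5 to 42.0, and at 0.727, where 30 ng/ml replicate 1 stood at 5.71 CPM against 29.3 to 38.1. Asns (0.714) was lowest, at 45.1 CPM against 48.1 to 49.3, and Eif4ebp1 (0.873) highest, at 35.0 against 28.9 to 29.7, in that same unstimulated replicate 4. Mthfd2 (0.844) was lowest in unstimulated replicate 1, at 20.7 CPM against 23.0 to 23.5. At 30 ng/ml, Psph (0.766) and Atf5 (0.824) were lowest in replicate 2, at 31.5 CPM against 34.5 to 35.5 and 78.8 against 85.0 to 86.3, and Mthfd1l (0.732) was highest in replicate 3, at 18.6 against 15.5 to 16.3. At 100 ng/ml, Nars1 (0.76) was highest in replicate 4, at 157 CPM against 147 to 150, and Ddit3 (0.806) highest in replicate 1, at 19.5 against 15.8 to 16.5. Nupr1 differed between the concentrations themselves, by 0.439 on the log2 scale (edgeR quasi-likelihood test, FDR 0.0214).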

How the results depend on the processing

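A member that was not called may still have changed. The falls at 100 ng/ml numbered 1 with library size alone, without a filter, with at least 10 counts in every culture and in the fit of the 2 groups. Risers at 30 ng/ml numbered 5 by DESeq2, by the likelihood-ratio test and with library size alone, where 63.1% of all calls at 30 ng/ml were rises instead of 52.9%. By the edgeR p without adjustment, held to 0.01 and joined to an absolute log2 fold change ≥ 0.5, 0 members were called in any comparison. All-gene calls between concentrations numbered 77 risen and 12 fallen, 179 and 68 by DESeq2 and 188 and 65 by the likelihood-ratio test; fits of 2 groups gave 616 and 330 at 100 ng/ml instead of 896 and 604, and 702 and 373 without a filter. Leaving out 1 culture gave 4 to 13 risen and 0 to 3 fallen members at 100 ng/ml, 1 to 5 risen at 30 ng/ml and 0 to 1 risen between concentrations; the causes were not tested. With the replicate number as a block, 6 members rose and 0 fell at 100 ng/ml and 2 rose at 30 ng/ml. Whether the numbers mark paired cultures is not given in the sources used here, and the correlations cannot decide it. Same-numbered pairs correlated between -0.183 and 0.264, 4 of 15 over 0.1, and 5 of 15 cultures correlated best with their own number. Values near 0 changed sign: at 30 ng/ml Atf4 (-0.0031 by DESeq2, -0.0030 with RLE factors, -0.0032 in the 2-group fit), Psat1 (0.018 with library size alone, 0.0021 without a filter) and Chac1 (0.017 and 0.0026). Without 1 culture, ranges crossing 0 were Slc7a5 at 100 ng/ml (-0.0121 to 0.0498), at 30 ng/ml Atf4 (-0.0180 to 0.0253), Psat1 (-0.0219 to 0.0219), Chac1 (-0.0563 to 0.0632) and Asns (-0.0597 to 0.00959), and between concentrations Psat1 (-0.0411 to 0.00427), Ddit3 (-0.0665 to 0.0222), Chac1 (-0.000441 to 0.119) and Wars1 (-0.0497 to 0.00608). Under the other scalings, filters, tests and fits, all cultures kept, 14 single-gene calls were lost, all of Cars1, Yars1, Trib3, Sesn2 or Slc1a4. Calls were gained by Psph (both concentrations) and Shmt2 (30 ng/ml) with DESeq2, the likelihood-ratio test and library size alone, and by Shmt2 at 30 ng/ml in the 2-group fit.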
